A study of Mus musculus with 24 samples.

Results

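The genes described here are 10 genes of bile acid synthesis and biliary export in mouse liver: the enzymes Cyp7a1, Cyp8b1 and Cyp27a1, the nuclear receptors Nr1h4 and Nr0b2, the bile acid and phospholipid transporters Abcb11, Abcb4 and Slc10a1, and the sterol exporters Abcg5 and Abcg8. They were taken by name. A probe set of the array was used where its annotation gave 1 of these symbols alone, which 13 probe sets did, and all 10 genes were among the 14164 genes tested, out of 18194 genes with such a probe set.

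Hepatocytes turn cholesterol into bile acids by a classic route that Cyp7a1 starts and by an alternative route in which the mitochondrial sterol 27-hydroxylase Cyp27a1 acts early, while Cyp8b1 sets the share of cholic acid. Bile acids returning from the gut are taken up by Slc10a1 and bind Nr1h4 (also called FXR), which induces Nr0b2 (also called SHP), a repressor of Cyp7a1, and Abcb11, the canalicular bile salt pump. Abcb4 moves phospholipid into bile, and Abcg5 and Abcg8 form a heterodimer that secretes cholesterol. Thyroid hormone is known to raise Cyp7a1 and cholesterol disposal in rodent liver.

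Liver RNA of 24 male mice was hybridised to 24 microarrays, 200 ng of total RNA each, in 8 groups of 3. All mice, controls included, had been made hypothyroid over 3 weeks with an iodine-poor diet and drinking water containing methimazole and perchlorate. They then received 1 intraperitoneal injection of the thyroid hormone T3 or the control treatment, called PBS in the sample names, and the T3 livers were taken 6 h later. The 18 arrays of the first submission came from mice on a C57BL/6J background made hypothyroid at 8 to 9 weeks, which drank 0.02% methimazole, 0.5% perchlorate and 0.3% saccharin, and in which T3 was given at 20 µg per 100 g body weight. They were wild type (WT), knockout of the thyroid hormone receptor beta (KO), or carried that receptor with the changes E125G and G126S, called GS. The 6 arrays of the later submission came from C57BL/6JCrl mice with the receptor change Y147F, made hypothyroid at 10 to 11 weeks with 0.05% methimazole and 1% perchlorate and given T3 at 200 ng per g. E125G and G126S lie in the part of the receptor that contacts DNA, and Y147F replaces a tyrosine that the receptor uses for signalling through phosphatidylinositol 3-kinase, so the comparisons ask which of these functions the response of a gene to T3 needs. Any difference of Y147F from WT cannot be told apart from the difference in submission, age, substrain and hypothyroid regimen. The numbers in the sample names all differ, so each array was taken as 1 animal. Nothing else says how the animals were obtained, and p-values measure the spread between these arrays.

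Values are log2 intensities, in which 1 unit is a factor of 2, and differences are given ± SE from a limma fit. The number of arrays limits their precision. The 8 measured hepatocyte markers of a list of 10, albumin among them, lay at or above the 98.3rd percentile of every array, and their mean ran from 14.38 to 14.51. Among the cholangiocyte markers, 7 of 10 were measured with a mean of 6.20 to 7.06, and Cftr lay under the 25th percentile on all arrays. All 10 Kupffer cell markers were measured, with a mean from 8.53 to 9.62, highest in GS with T3 replicate 3 and Y147F with PBS replicate 2. The mean correlation of an array with the others of its group, over all probe sets without a missing cell, was 0.9938 to 0.9966. It was lowest for Y147F with PBS replicate 3. Dio1, a strongly T3-responsive deiodinase, had a T3 difference of 6.63 in WT, 7.52 in Y147F, 1.82 in KO and 2.52 in GS. The probe set of Thrb, the receptor gene itself, was 0.19 ± 0.17 above WT in KO with PBS, so it did not show the knockout, and where its probes lie relative to the deletion was not examined here. In whole liver, fewer cells of a type and less RNA per cell cannot be told apart.

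Promoter windows are shown for 5 of the genes whose differences are described below, because E125G and G126S change the part of the receptor that contacts DNA. The windows run from 250 bases before to 50 bases after a RefSeq transcript start in the build GRCm38.p6, read 5′ to 3′ on the strand of the gene. Capitals mark a nuclear receptor half-site, spelled AGGTCA or GGGTCA, with AGTTCA and GGTTCA as further spellings, on either strand, so that a half-site on the opposite strand appears as its reverse complement. The table held windows for all of the 10 genes but Cyp7a1.
Abcg8, chr17:84682871-84683170, plus strand: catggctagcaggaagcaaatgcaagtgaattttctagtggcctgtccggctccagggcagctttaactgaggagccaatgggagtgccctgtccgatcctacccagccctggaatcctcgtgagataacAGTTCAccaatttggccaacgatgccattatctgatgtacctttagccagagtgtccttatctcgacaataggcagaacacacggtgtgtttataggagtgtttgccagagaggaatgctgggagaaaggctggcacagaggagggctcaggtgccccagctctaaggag
Cyp27a1, chr1:74713285-74713584, plus strand: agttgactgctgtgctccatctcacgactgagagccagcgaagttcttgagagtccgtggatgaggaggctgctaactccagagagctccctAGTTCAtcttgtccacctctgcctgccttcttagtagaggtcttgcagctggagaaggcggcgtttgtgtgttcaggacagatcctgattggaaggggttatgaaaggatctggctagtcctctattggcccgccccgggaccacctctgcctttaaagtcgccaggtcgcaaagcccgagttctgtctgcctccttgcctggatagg
Nr1h4, chr10:89506609-89506908, minus strand: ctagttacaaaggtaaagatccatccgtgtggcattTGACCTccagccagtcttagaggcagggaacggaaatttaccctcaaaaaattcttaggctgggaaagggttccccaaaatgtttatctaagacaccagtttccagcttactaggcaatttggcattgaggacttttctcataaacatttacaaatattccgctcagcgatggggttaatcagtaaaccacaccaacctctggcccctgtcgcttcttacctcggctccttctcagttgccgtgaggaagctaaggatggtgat
Abcb11, chr2:69342567-69342866, minus strand: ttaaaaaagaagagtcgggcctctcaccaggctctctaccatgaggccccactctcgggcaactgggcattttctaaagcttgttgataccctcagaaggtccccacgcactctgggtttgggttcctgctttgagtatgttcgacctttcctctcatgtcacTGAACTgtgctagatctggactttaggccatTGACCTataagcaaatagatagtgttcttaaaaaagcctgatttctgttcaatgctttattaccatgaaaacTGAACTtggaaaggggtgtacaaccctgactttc
Abcb4, chr5:8893471-8893770, plus strand: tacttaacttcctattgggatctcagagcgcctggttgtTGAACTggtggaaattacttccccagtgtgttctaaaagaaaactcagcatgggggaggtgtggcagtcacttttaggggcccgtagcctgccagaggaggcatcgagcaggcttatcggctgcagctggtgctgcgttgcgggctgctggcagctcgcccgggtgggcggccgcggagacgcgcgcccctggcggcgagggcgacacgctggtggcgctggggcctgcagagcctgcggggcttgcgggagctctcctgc

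Abcg5 and Abcg8 are neighbours transcribed in opposite directions. Abcg8 has 2 windows in the table, of which the other (chr17:84676052-84676351), at the start of the gene as RefSeq gives it and inside Abcg5, held no half-site. The start of the window shown lies 110 bases from that of Abcg5, and 209 bases (chr17:84682962-84683170) belong to the windows of both genes, so the AGTTCA whose first base is at -120 from the start of Abcg8 is the same site that lies at 5 from the start of Abcg5, on the opposite strand. Of the 11 windows of these genes, 8 held at least 1 half-site, among them all that are shown. The window of Cyp8b1, which rose with T3 in WT and Y147F, held none and is not shown. Slc10a1 had 2 windows, of which 1 held none. Of all 32851 windows in the table, 43.7% held one and 14.0% held AGTTCA. No window of these genes held 2 half-sites in any orientation within 8 bases of each other, against 1.86% of all windows. The Nr1h4 window shown (chr10:89506609-89506908), the only one held for that gene, is at a transcript start inside the gene. On the minus strand the gene as RefSeq gives it begins at chr10:89533645, and no window there was searched. The transcript starts of the Cyp27a1 and Abcb4 windows also lie inside their genes, which begin at chr1:74713148 and chr5:8893614. A match is a description of letters and says nothing of binding.

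**Figure D1:**
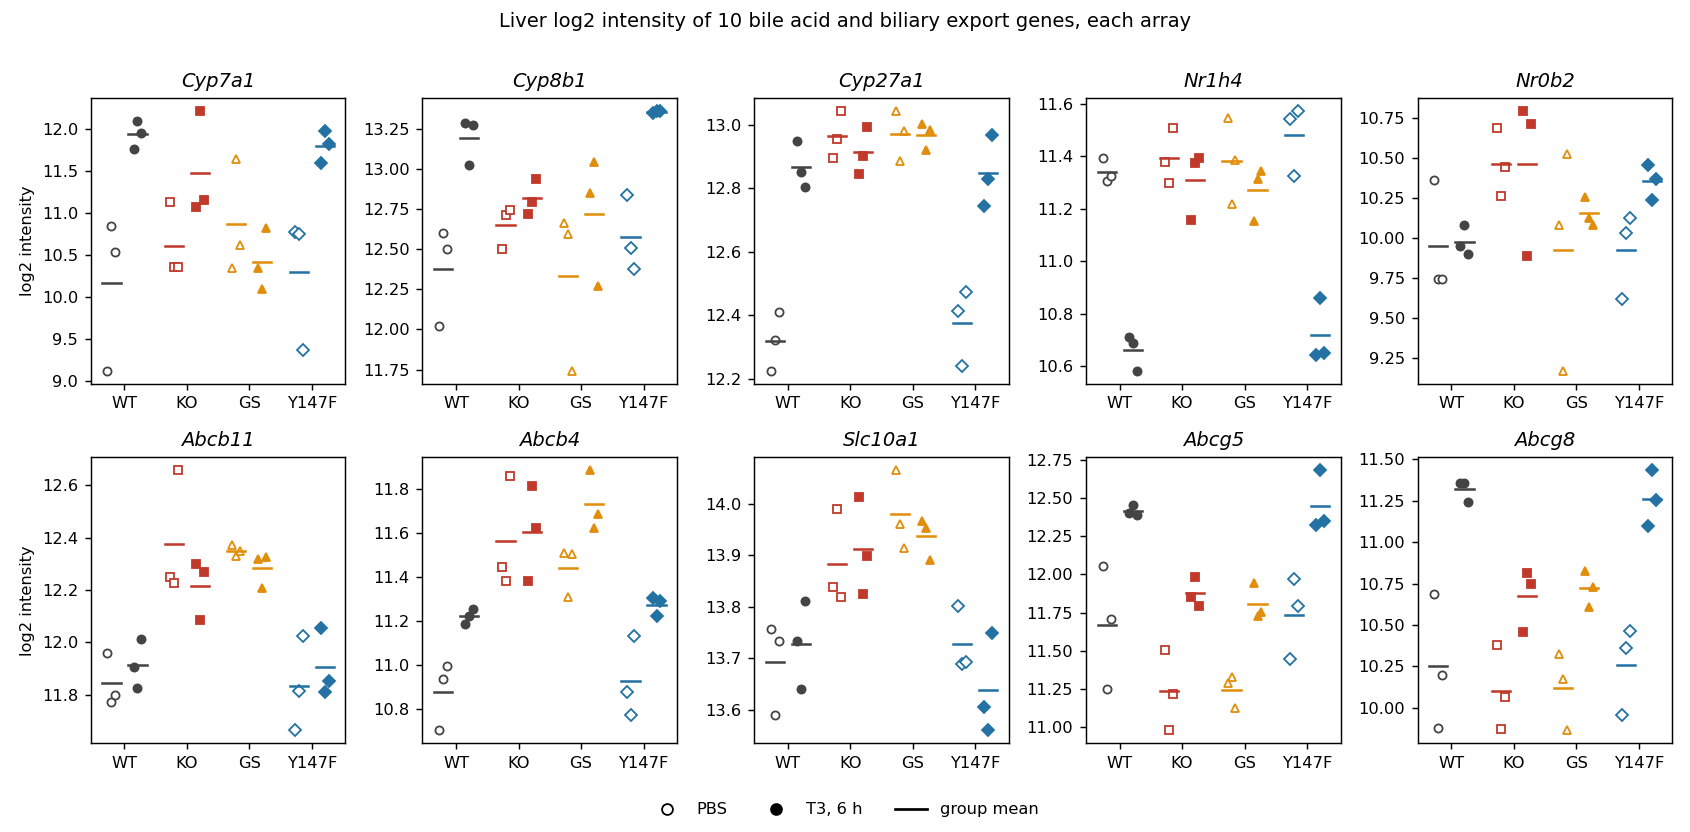
Log2 intensity of each of the 10 genes on each of the 24 arrays, 1 panel a gene with its own vertical scale. Open symbols are PBS arrays, filled symbols T3 arrays, and short lines group means. Nr1h4, Cyp27a1, Cyp7a1, Cyp8b1, Abcb4, Abcg5 and Abcg8 separate the T3 from the PBS arrays in WT and Y147F. Cyp27a1, Abcb11, Abcb4 and Slc10a1 separate KO and GS from WT with PBS, and Cyp7a1 is scattered most among PBS arrays.

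T3 in WT mice raised 5 of the 10 genes and lowered 1 within 6 h. All 3 synthesis enzymes and both subunits of the sterol exporter rose, the bile acid receptor Nr1h4 fell, and Nr0b2, Abcb11, Abcb4 and Slc10a1 were not called at an adjusted p under 0.05. Over all genes tested 10.6% were called. The median difference of the 10 genes was 0.45, against -0.03 over all genes, and in 7 of them the T3 and PBS arrays did not overlap, which was so for 29.5% of all genes. Sinusoidal endothelial markers, all 10 measured, had a mean of 9.23 to 9.36 with T3 and 9.51 to 9.55 with PBS in WT, and 9.25 to 9.36 and 9.40 to 9.51 in GS. None was called in either, 5 of 10 in WT and 4 in GS had an unadjusted p under 0.05, against 23.2% and 7.01% of all genes, and their part in the differences of the 10 genes was not tested.

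Gene positions below are those of RefSeq in GRCm38.p6. Cyp7a1 (chr4:6265612-6275632), the rate-limiting enzyme of the classic route, read 9.12, 10.85 and 10.53 in WT with PBS and 11.77, 12.10 and 11.96 with T3. The PBS arrays were spread over more than a factor of 2 while the T3 arrays lay close together, and the groups did not overlap. The rise was 1.77 ± 0.43 (adjusted p = 0.00838), 3.42-fold. Without WT replicate 1 with PBS, the lowest array, it was 1.25 and no longer called (adjusted p = 0.0727). In Y147F the PBS arrays read 10.77, 10.75 and 9.37 and the T3 arrays 11.60, 11.97 and 11.82. As in WT, 1 PBS array was far below the others. The rise of 1.499 ± 0.43 (adjusted p = 0.0253) was 1.04 without that array (adjusted p = 0.152), and leaving out any of the T3 arrays also ended the call, at adjusted p-values of 0.0504 to 0.0819. A second probe set of Cyp7a1 gave WT means of 8.41 with PBS and 10.25 with T3.

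In KO, Cyp7a1 read 11.13, 10.35 and 10.35 with PBS and 11.07, 12.22 and 11.15 with T3. In GS the values were 10.35, 11.64 and 10.63 with PBS and 10.35, 10.09 and 10.82 with T3. On this probe set, the brighter one, the 2 treatments overlapped in both mutants. Neither difference was called (0.87 ± 0.43 in KO, 95% interval -0.02 to 1.76, and -0.45 ± 0.43 in GS, -1.34 to 0.44). Without 1 array the KO difference ran from 0.50, without KO replicate 2 with T3, to 1.13. The GS difference ran from -0.71, without GS replicate 1 with PBS, to -0.07, without GS replicate 2 with PBS, and was -0.29 without GS replicate 2 with T3. None of these was called. The response in GS minus that in WT was -2.22 ± 0.61, just outside the threshold (adjusted p = 0.0505). It was called in 2 of 12 fits without 1 array, without WT replicate 2 (-2.56, adjusted p = 0.0293) or GS replicate 1 (-2.49, 0.0420) with PBS. It was also called in 2 of 9 other settings, array weights (0.0480) and a stricter filter on low values (0.0422). Its weakest values were -1.70 without WT replicate 1 with PBS and an adjusted p of 0.156 without GS replicate 2 with PBS, and the adjusted p rose to 0.098 in the other settings. The KO response differed from WT by -0.91 ± 0.61 (adjusted p = 0.619), and the responses of GS and KO differed by -1.32 ± 0.61 (adjusted p = 0.865), so the 2 mutants were not separated by the test. Their T3 arrays did not overlap, which was so for 11.6% of all genes. On the second probe set of Cyp7a1 the treatments did not overlap in KO. It read 9.124, 8.487 and 8.38 with PBS and 9.525, 10.303 and 9.415 with T3. In GS they overlapped on it too, with means of 9.146 with PBS and 8.741 with T3.

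Cyp8b1 (chr9:121914356-121916305), the sterol 12-alpha-hydroxylase that leads to cholic acid, read 12.02, 12.60 and 12.50 with PBS and 13.29, 13.02 and 13.27 with T3 in WT. It rose by 0.82 ± 0.21 (adjusted p = 0.0119), and without WT replicate 1 with PBS the rise was 0.64 and not called (0.0860). In Y147F it rose by 0.78 ± 0.21 (adjusted p = 0.0161), from 12.84, 12.51 and 12.38 to 13.34, 13.36 and 13.36. The 3 T3 arrays of Y147F were almost identical, and the call ended without PBS replicate 2 (0.0540) or 3 (0.0744). The difference in KO was 0.17 ± 0.21, between 12.50 to 12.74 with PBS and 12.72 to 12.94 with T3, and that in GS was 0.39 ± 0.21, between 11.74 to 12.66 and 12.27 to 13.04. Neither was called, and neither response differed from that of WT past the threshold.

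Cyp27a1 (chr1:74713148-74737897), the sterol 27-hydroxylase, had the smallest SE of the 3 enzymes. WT read 12.23, 12.32 and 12.41 with PBS and 12.95, 12.85 and 12.80 with T3, a rise of 0.55 ± 0.08 (adjusted p = 3.09e-05). Y147F read 12.41, 12.24 and 12.47 with PBS and 12.74, 12.83 and 12.97 with T3, a rise of 0.47 ± 0.08 (adjusted p = 0.000213). In both genotypes every T3 array lay above every PBS array. KO read 12.90, 12.96 and 13.04 with PBS and 12.85, 12.90 and 12.99 with T3, and GS 13.04, 12.89 and 12.98 with PBS and 13.002, 12.92 and 12.98 with T3. All 12 arrays of the 2 mutants thus lay in the range of the T3 arrays of WT or just above it, whatever the injection. The T3 difference was -0.05 ± 0.08 in KO and -0.00 ± 0.08 in GS, and the response minus that of WT was -0.60 ± 0.11 in KO (adjusted p = 0.0021). In GS it was -0.55 ± 0.11 (adjusted p = 0.00455). Without hormone KO stood 0.65 ± 0.08 above WT (adjusted p = 3.68e-05), and GS stood 0.65 ± 0.08 above it (adjusted p = 3.17e-05). A second, dim probe set of Cyp27a1 lay between the 1.1st and 5.1st percentile of its arrays. Averaging it in brought the rise in WT to 0.31, the higher level without hormone to 0.37 in KO and 0.38 in GS, and the response differences to -0.34 and -0.30, all still called.

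**Figure D2:**
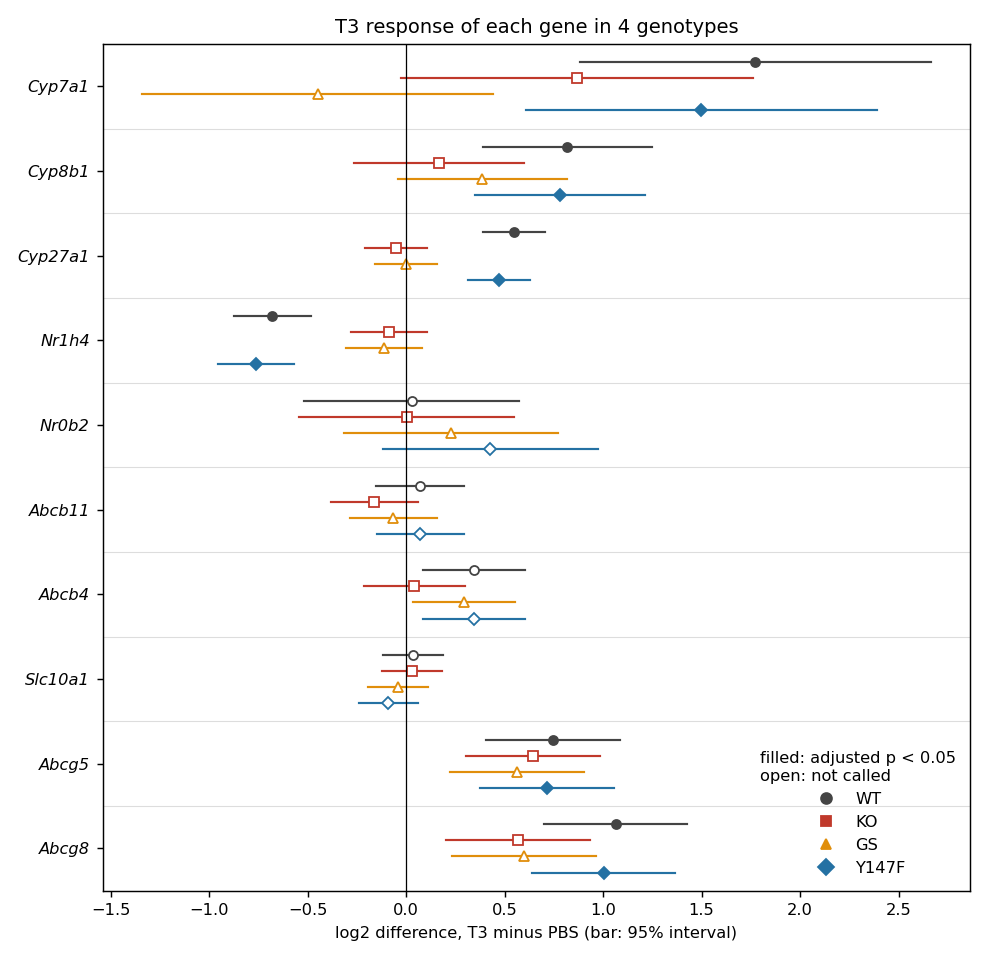
Log2 difference between T3 and PBS for each gene in WT, KO, GS and Y147F, with its 95% interval; filled symbols passed an adjusted p of 0.05. The WT and Y147F values differ by 0.40 at most, for Nr0b2, Cyp27a1 and Nr1h4 lie at about 0 in KO and GS, and Abcg5 and Abcg8 lie above 0 in all 4 genotypes.

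Nr1h4 (chr10:89454234-89533645), the receptor that senses bile acids, was the gene that fell. WT read 11.39, 11.31 and 11.32 with PBS and 10.71, 10.69 and 10.58 with T3, and it fell by 0.68 ± 0.09 (adjusted p = 2.84e-05). Y147F read 11.54, 11.33 and 11.57 with PBS and 10.64, 10.86 and 10.65 with T3, where it fell by 0.76 ± 0.09 (adjusted p = 9.97e-06). The gap between treatments was several times the spread within a group in both. The 12 KO and GS arrays read between 11.15 and 11.55, 11.39 ± 0.11 (SD, n = 3) in KO and 11.38 ± 0.16 in GS with PBS, 11.31 ± 0.13 and 11.27 ± 0.10 with T3. The KO response minus the WT response was 0.59 ± 0.13 (adjusted p = 0.0124), and the GS response minus the WT response 0.57 ± 0.13 (adjusted p = 0.019). Leaving out 1 array ended the GS call in 5 of 12 fits, without WT replicate 3 or GS replicates 2 or 3 with T3, or without WT replicate 1 or GS replicate 2 with PBS, at adjusted p-values of 0.0507 to 0.0660 and differences of 0.49 to 0.55. Without hormone the level of Nr1h4 was within 0.14 of WT in KO, GS and Y147F.

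Nr0b2 (chr4:133553376-133556686), the repressor that Nr1h4 induces, was not called in any of the comparisons, nor did it reach an unadjusted p of 0.05 in any. Its T3 difference was 0.03 ± 0.26 in WT, 0.00 ± 0.26 in KO, 0.23 ± 0.26 in GS and 0.43 ± 0.26 in Y147F. Only in Y147F did the treatments not overlap, with 9.62, 10.03 and 10.13 with PBS and 10.45, 10.24 and 10.37 with T3. The arrays of GS with PBS read 10.08, 9.17 and 10.53, the widest spread of this gene, and KO with T3 read 10.80, 9.89 and 10.71. The 95% interval in WT was -0.52 to 0.57, so changes within it could not be seen.

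Abcb11 (chr2:69238282-69342616), the bile salt export pump, did not respond to T3 past the threshold in any genotype, with differences from -0.16 in KO to 0.07 in Y147F. Its level differed between genotypes. With PBS, WT read 11.96, 11.77 and 11.80, KO 12.25, 12.23 and 12.66, GS 12.37, 12.33 and 12.35 and Y147F 11.66, 11.81 and 12.03. Every KO and GS array lay above every WT and Y147F array. KO stood 0.53 ± 0.11 above WT (adjusted p = 0.00386), and GS 0.51 ± 0.11 (adjusted p = 0.00958). With only the groups compared in the fit the KO difference was not called (0.0682), and without WT replicate 2 with PBS the GS difference was 0.47 and not called (0.0506). With T3 the KO arrays read 12.30, 12.08 and 12.27 and the GS arrays 12.32, 12.21 and 12.33, against 11.91, 11.83 and 12.01 in WT.

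Abcb4 (chr5:8893614-8959226), the phospholipid transporter that protects the bile ducts from bile salts, was also higher in KO and GS without hormone. With PBS, WT read 10.70, 10.93 and 10.99, KO 11.44, 11.38 and 11.86, GS 11.51, 11.31 and 11.50 and Y147F 10.88, 10.77 and 11.13. KO stood 0.69 ± 0.12 above WT (adjusted p = 0.00175) and GS 0.56 ± 0.12 (adjusted p = 0.0134). The GS call was lost without WT replicate 1 with PBS (0.48, 0.0785), GS replicate 1 (0.53, 0.0652) or GS replicate 3 (0.53, 0.0633). The T3 difference was 0.34 ± 0.12 in WT, 0.34 ± 0.12 in Y147F, 0.29 ± 0.12 in GS and 0.04 ± 0.12 in KO. None was called, although the 2 treatments did not overlap in WT, Y147F and GS, and the WT value was called with only the groups compared in the fit (0.0492) and the Y147F value with array weights (0.0242) or without Y147F replicate 3 with PBS (0.0382). No fit without 1 array called the WT value, which fell to 0.26 without WT replicate 1 with PBS (0.316), and the Y147F value fell to 0.27 without PBS replicate 2 (0.256).

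Slc10a1 (chr12:80953185-80968705), the sodium-dependent uptake transporter, lay between 13.56 and 14.07 on all 24 arrays. Its T3 differences ran from -0.09 to 0.04, and none was called. With PBS, WT read 13.76, 13.59 and 13.73 and GS 14.07, 13.96 and 13.91, a difference of 0.29 ± 0.07 (adjusted p = 0.0352). That call was lost when any 1 of the 6 arrays was left out (0.0523 to 0.179) and with only the groups compared in the fit (0.137). KO read 13.84, 13.99 and 13.82, 0.19 ± 0.07 above WT and not called. A second probe set gave the same order of WT below KO below GS with PBS, at means of 13.26, 13.43 and 13.54.

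Abcg5 (chr17:84658174-84683011) and Abcg8 (chr17:84676302-84700333), which pair to export cholesterol and plant sterols into bile, rose in WT and Y147F. Abcg5 in WT read 12.05, 11.25 and 11.71 with PBS and 12.40, 12.46 and 12.39 with T3, a rise of 0.75 ± 0.16 (adjusted p = 0.00397). Abcg8 in WT read 10.69, 9.88 and 10.20 with PBS and 11.36, 11.36 and 11.24 with T3, a rise of 1.06 ± 0.18 (adjusted p = 0.000239), 2.09-fold. In both genes the PBS arrays of WT were spread widely and the T3 arrays lay close together. In Y147F Abcg5 rose by 0.72 ± 0.16 (adjusted p = 0.0057) and Abcg8 by 1.00 ± 0.18 (adjusted p = 0.000524).

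These were the 2 genes whose treatments did not overlap in both KO and GS. Abcg5 in KO read 11.51, 10.98 and 11.22 with PBS and 11.85, 11.98 and 11.79 with T3, and in GS 11.29, 11.33 and 11.12 and 11.94, 11.73 and 11.75, so every T3 array lay above every PBS array of its genotype. Abcg8 in KO read 10.38, 9.87 and 10.07 with PBS and 10.46, 10.81 and 10.75 with T3, and in GS 10.33, 10.18 and 9.87 and 10.83, 10.61 and 10.73. Adjusted over all genes, none of the 4 differences was called: Abcg5 had 0.64 ± 0.16 in KO (adjusted p = 0.121) and 0.56 ± 0.16 in GS (0.373), and Abcg8 0.57 ± 0.18 in KO (0.231) and 0.60 ± 0.18 in GS (0.391). Among the 10 genes none was called in KO, where 0.177% of all genes were, or in GS, where 0.148% were. Of the 10 genes, 2 in KO and 3 in GS had an unadjusted p under 0.05 by limma, against 10.4% and 7.01% of all genes. These were Abcg5 and Abcg8 in both, and Abcb4 in GS. Treatments did not overlap for 2 of the 10 genes in KO and 4 in GS, against 15.2% and 13.1% of all genes.

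A contrast of the mean of KO and GS, added after the data had been seen, called both genes. With T3 Abcg5 was higher by 0.60 ± 0.12 (adjusted p = 0.0142) and Abcg8 by 0.58 ± 0.12 (adjusted p = 0.0283), 0.614% of all genes were called, and no other of the 10 genes was. Of the sinusoidal endothelial markers, 1 of 10 was called lower in the same contrast (median -0.18), and its part in these differences was not tested. Leaving out single arrays of these groups kept the Abcg8 call in 3 of 12 fits, and it was lost without KO replicates 2 or 3 or GS replicates 2 or 3 with either treatment, or GS replicate 1 with T3 (0.0506 to 0.0985, differences 0.52 to 0.61). The mean response of KO and GS differed from that of WT by -0.14 ± 0.20 for Abcg5 (95% interval -0.56 to 0.27) and -0.48 ± 0.22 for Abcg8 (-0.93 to -0.03, adjusted p = 0.292). In that contrast 4.08% of all genes were called, Cyp27a1 (-0.58 ± 0.09) and Nr1h4 (0.58 ± 0.11) among them.

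In the tests of a difference between responses, 2 of the 10 genes, Nr1h4 and Cyp27a1, were called in KO against WT, where 3.09% of all genes were. The difference was positive for Nr1h4, which fell in WT and was -0.09 ± 0.09 with T3 in KO. It was negative for Cyp27a1, which rose in WT and was -0.05 ± 0.08 in KO. The same 2 were called in GS against WT, where 2.92% were. Both comparisons share the WT arrays. Between GS and KO no gene was called by limma (0%), with 810 genes at an unadjusted p under 0.05, Cyp7a1 among them. Between Y147F and WT no gene was called either (0%), with 760 at an unadjusted p under 0.05 and none of the 10. In Y147F 5 of the 10 rose and 1 fell with T3, with 11.6% of all genes called, and 8 of them had treatments that did not overlap, against 26.1% of all genes. The 95% intervals of the difference between the Y147F and WT responses were -0.30 to 0.15 for Cyp27a1, -0.36 to 0.19 for Nr1h4, -0.58 to 0.46 for Abcg8 and -1.54 to 0.99 for Cyp7a1, the last too wide to say much.

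**Figure D3:**
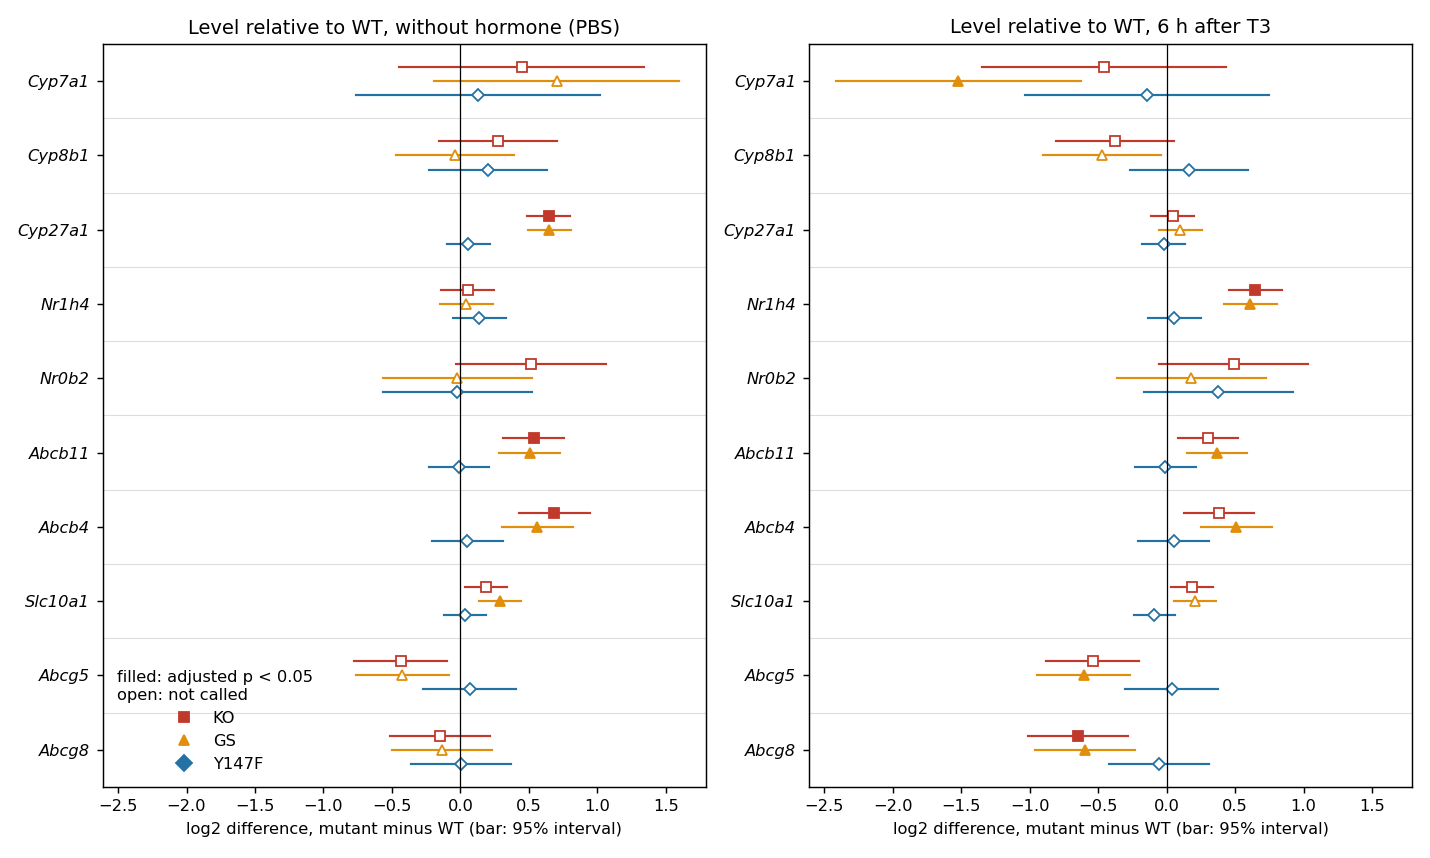
Log2 difference of KO, GS and Y147F from WT for each gene, with PBS on the left and with T3 on the right, with 95% intervals; filled symbols passed an adjusted p of 0.05. With PBS, Cyp27a1, Abcb11 and Abcb4 passed above WT in KO and GS, and Slc10a1 in GS. With T3, Nr1h4 passed above and Abcg8 below WT in both. Abcb11 and Abcb4 passed above and Abcg5 and Cyp7a1 below in GS only. No difference of Y147F passed, Nr0b2 with T3 lying farthest from 0 at 0.38.

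Without hormone, 3 of the 10 genes were higher in KO than in WT (Cyp27a1, Abcb11 and Abcb4) and 4 in GS (the same and Slc10a1), with 6.86% and 2.97% of all genes called. None was lower. Abcg5 was -0.44 ± 0.16 against WT in KO and -0.42 ± 0.16 in GS, not called, and both values depended on single WT arrays with PBS. Without WT replicate 2 they were -0.65 (adjusted p = 0.0203) and -0.63 (0.0375), and without WT replicate 1 -0.24 (0.473) and -0.23 (0.627). Between GS and KO 0.0988% of all genes were called and none of the 10, and between Y147F and WT 0.0847% and none of the 10. In neither did limma give any of the 10 an unadjusted p below 0.05, which 8.53% and 13.8% of all genes had. The mean of KO and GS against WT called the same 4 genes as GS did, with 6.54% of all genes. There Slc10a1 was 0.24 higher, and its call was lost without WT replicates 2 or 3, KO replicate 2 or GS replicate 1 (0.0555 to 0.191), while Abcg5, at -0.43 ± 0.14 and not called, was called without WT replicate 2 (-0.64) or KO replicate 1 (-0.50) and was -0.24 without WT replicate 1 (0.446). Periportal hepatocyte markers, of which 7 of 10 were measured, had a mean of 12.05 to 12.28 in WT, 12.16 to 12.64 in KO and 12.52 to 12.63 in GS with PBS. Of these 7, 3 were called higher and 1 lower in KO and 2 higher in GS, with a median difference of -0.04 and 0.21, and their part in the differences of the 10 genes was not tested.

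With T3 the pattern of levels was another. Nr1h4 stood above WT in both mutants, by 0.65 ± 0.09 (adjusted p = 0.000177) in KO and 0.61 ± 0.09 (0.000365) in GS. Abcg8 was lower, with -0.65 ± 0.18 in KO (0.0278) and -0.60 ± 0.18 in GS (0.0495). Abcg5 was lower in GS, with -0.61 ± 0.16 (0.0328), and its difference in KO was just outside the threshold (-0.54 ± 0.16, 0.0504). Cyp7a1 was lower in GS, with -1.52 ± 0.43 (0.0416), and Abcb11 (0.37 ± 0.11) and Abcb4 (0.51 ± 0.12) were higher in GS. The call rates over all genes were 6.93% in KO, 5.59% in GS and 9% for their mean against WT, in which 3 of the 10 were higher and 2 lower.

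Most of these calls at the T3 level stood close to the threshold. In GS 6 of the 10 genes were called, and 1 or 2 when any of the 6 arrays, WT with T3 replicates 1, 2 or 3 or GS with T3 replicates 1, 2 or 3, was left out, with Nr1h4 called in every one of these fits. Abcg8 in GS was also lost in 5 other settings, among them no filter on low values (0.0594) and only the 18 arrays submitted first (0.0537). Abcg5 in KO was called in 4 settings, such as the stricter filter (0.0411). In KO Abcg8 was called without KO replicate 2 and lost without KO replicates 1 or 3 or any WT array (0.0509 to 0.124, differences -0.68 to -0.54). The mean of KO and GS kept 2 of its 5 calls without WT replicate 2 with T3 and 3 without WT replicate 1. Kupffer cell markers had a mean of 8.77 to 9.62 in GS and 8.53 to 8.85 in WT with T3, 1 of 10 was called higher with a median difference of 0.47, and their part in the GS levels was not tested. Cyp27a1, which was higher in KO and GS without hormone, was within 0.10 of WT with T3 in KO, GS and Y147F. Between GS and KO 0.106% of all genes were called with T3, between Y147F and WT 0.00706%, and none of the 10 in either. Of the 10, only Cyp7a1 between GS and KO had an unadjusted p under 0.05, against 6.87% and 8.4% of all genes.

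**Figure D4:**
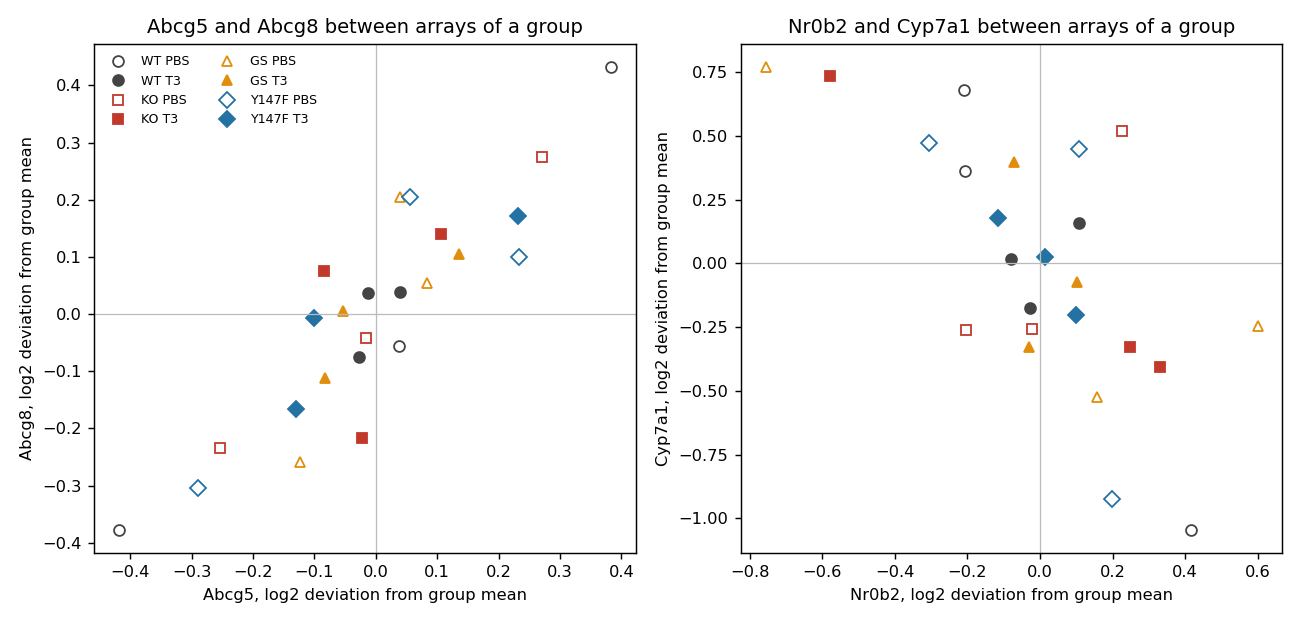
Deviation of each of the 24 arrays from the mean of its group, in log2 units, for Abcg8 against Abcg5 on the left and Cyp7a1 against Nr0b2 on the right; open symbols are PBS and filled symbols T3 arrays. Abcg5 and Abcg8 rise together along a line, and the 2 arrays with the lowest Nr0b2 hold the 2 highest values of Cyp7a1.

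How the genes varied between mice of the same group was examined after the data had been seen, by correlating the deviations of the 24 arrays from their group means over all 45 pairs of the 10 genes, with two-sided permutation tests of 100000 relabellings of arrays within groups and Benjamini-Hochberg adjustment over the pairs. All points share the normalisation of the arrays. Abcg5 and Abcg8 varied together (Pearson r = 0.889, permutation p = 0.00026, adjusted 0.0117; Spearman rho = 0.877, p = 0.00014, adjusted 0.0063). The correlation was 0.821 without the 2 arrays farthest from the median of Abcg5, 0.897 over the 18 arrays of the first submission and 0.875 over the 6 of the later one. Their widest pair of arrays was WT with PBS, replicate 1 at 12.05 for Abcg5 and 10.69 for Abcg8 and replicate 2 at 11.25 and 9.88. The other 44 pairs did not pass. Cyp7a1 and Nr0b2 had r = -0.677 (permutation p = 0.0183, adjusted 0.206) and rho = -0.644 (0.0212, adjusted 0.2), with r = -0.698 in the first and -0.673 in the later submission. It was -0.643 without the 2 arrays farthest from the median of Cyp7a1, WT replicate 1 and Y147F replicate 3 with PBS. The 2 arrays with the lowest Nr0b2 deviation, GS replicate 2 with PBS and KO replicate 2 with T3, stayed in that check. Among the arrays behind this correlation, WT replicate 1 with PBS had the lowest Cyp7a1 and the highest Nr0b2 of its group. GS replicate 2 with PBS had the highest Cyp7a1 (11.64) and the lowest Nr0b2 (9.17) of its group. Cyp7a1 and Abcb11 had r = -0.588 (permutation p = 0.00718, adjusted 0.112) and rho = -0.583 (0.0112, adjusted 0.173), with r = -0.47 without the 2 arrays farthest from the median of Cyp7a1. Cyp27a1 and Abcb4 had r = 0.602 (permutation p = 0.00747, adjusted 0.112) and rho = 0.572 (0.0115, adjusted 0.173), with r = 0.602 without the 2 arrays farthest from the median of Cyp27a1.

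**Figure D5:**
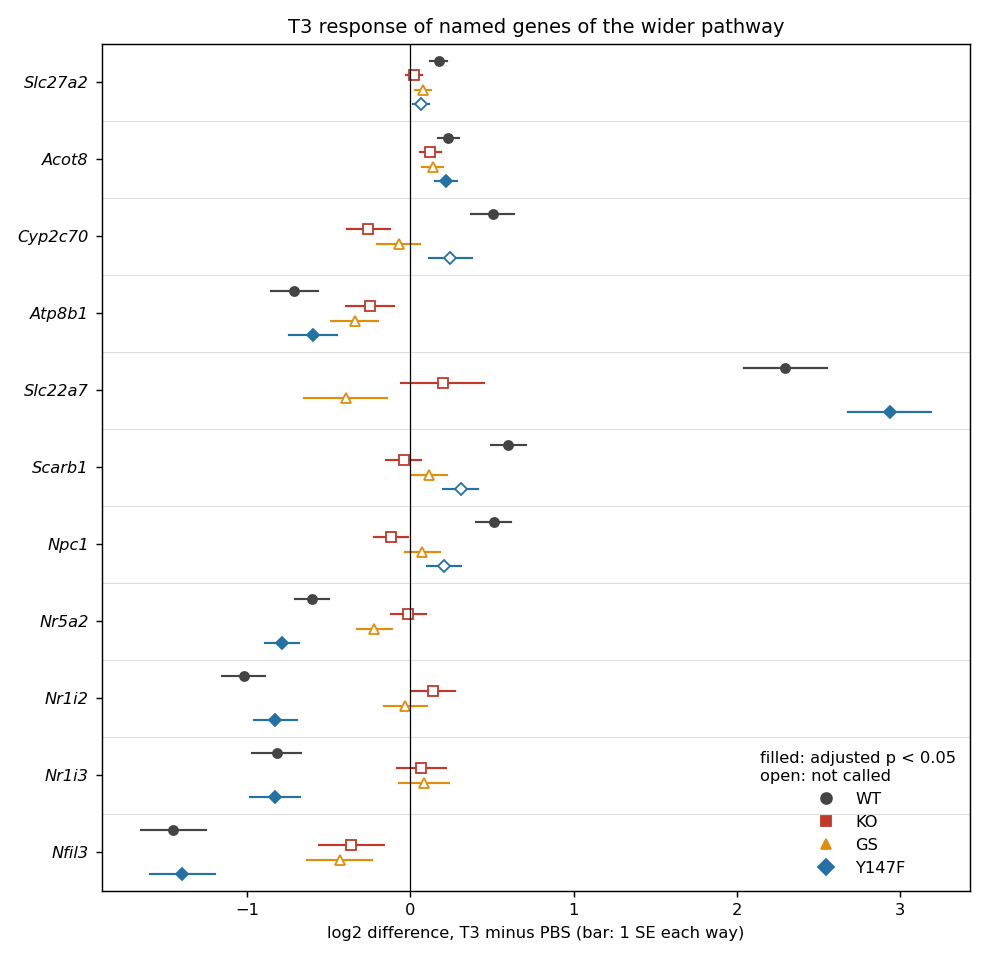
Log2 difference between T3 and PBS, ± 1 SE, in WT, KO, GS and Y147F for 11 other genes of bile acid synthesis, transport, sterol handling and their regulation; filled symbols passed an adjusted p of 0.05. Slc22a7 rises by over 2 in WT and Y147F, the regulators Nr1i2, Nr1i3, Nr5a2 and Nfil3 fall in both, and no gene shown passed in KO or GS.

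Other genes of the pathway were counted in 4 lists, to be read against the 10.6% of all genes called with T3 in WT. Of 16 further genes of bile acid synthesis, 3 rose with T3 in WT and none fell: Cyp2c70, which makes the muricholic acids of the mouse (0.50 ± 0.13), the peroxisomal thioesterase Acot8 (0.23 ± 0.07) and the acyl-CoA synthetase Slc27a2 (0.17 ± 0.05). Of 14 further transporters tested, 1 rose and 1 fell. Slc22a7, an organic anion transporter of the sinusoidal membrane, rose by 2.30 ± 0.25 (adjusted p = 1.84e-06), and Atp8b1, a phospholipid flippase of the canalicular membrane, fell by 0.71 ± 0.15 (0.00209). Of 10 further genes of sterol export and reverse cholesterol transport, 2 rose, the HDL receptor Scarb1 (0.60 ± 0.11) and the lysosomal cholesterol exporter Npc1 (0.51 ± 0.11). Of 19 regulators other than Nr1h4 and Nr0b2, 7 fell and none rose, while the synthesis, transport and sterol lists had 3 of 16, 2 of 14 and 2 of 10 called. The xenobiotic receptor Nr1i2 fell by 1.02 ± 0.13, its relative Nr1i3 fell by 0.82 ± 0.15 and the circadian repressor Nfil3 fell by 1.45 ± 0.20. Nr5a2, an activator of Cyp7a1 and Cyp8b1, fell by 0.60 ± 0.11.

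In KO and GS no further gene of the 4 lists was called with T3 by limma. With the 10 genes included, 4, 2, 3 and 1 genes of the lists in KO and 1, 2, 3 and 3 in GS had an unadjusted p under 0.05, of 19, 17, 12 and 21 tested, against 10.4% and 7.01% of all genes. The response of Slc22a7 was smaller than in WT, with -2.10 ± 0.36 in KO (adjusted p = 0.00143) and -2.70 ± 0.36 in GS (9.13e-05). For Nr1i2 and Nr1i3, which T3 lowered in WT, the response minus that of WT was positive and called in both. With T3 against PBS, Nr1i2 was 0.14 ± 0.13 in KO and -0.03 ± 0.13 in GS, and Nr1i3 0.07 ± 0.15 and 0.08 ± 0.15. Cyp2c70, Scarb1, Npc1, Nr5a2 and Nfil3 had responses that differed from WT in KO. With T3, 8 of the 19 regulators were higher and 1 lower than in WT in KO, and as many in GS, where 6.93% and 5.59% of all genes were called. In Y147F, where 11.6% of all genes were called, 1 of 16 synthesis genes rose, 3 of 14 transporters rose and 2 fell, 2 of 10 sterol genes fell, and 1 of 19 regulators rose and 8 fell.

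Genes of the wider pathway also differed from WT without hormone, where 6.86% of all genes were called in KO and 2.97% in GS. In KO 6 of the 16 synthesis genes were higher and 1 lower, 4 of the 14 transporters higher and 2 lower, 1 of the 10 sterol genes higher, and 1 of the 19 regulators higher and 2 lower. In GS 2 of the 16 synthesis genes, 1 of the 14 transporters and 1 of the 10 sterol genes were higher and 1 of the 19 regulators was lower. Of the genes that T3 raised in WT, Slc22a7 was higher without hormone by 2.44 ± 0.25 in KO and 2.59 ± 0.25 in GS, Cyp2c70 by 0.94 ± 0.13 and 0.78 ± 0.13, and Scarb1 by 0.73 ± 0.11 and 0.56 ± 0.11. Nr1i3, which T3 lowered in WT, was lower without hormone, with -0.69 ± 0.15 in KO and -0.60 ± 0.15 in GS. Acot8 and Slc27a2, which T3 raised, were higher in KO (0.28 and 0.24) and not called in GS. Other named genes that T3 changed in WT were not called in either, Npc1 at 0.245 in KO and 0.23 in GS and Atp8b1 at -0.31 and -0.30. Nor were Nr1i2 (-0.33 and -0.25), Nr5a2 (-0.35 and -0.135) and Nfil3 (0.05 and -0.28), which T3 lowered. Cyp7a1, Cyp8b1, Nr1h4, Abcg5 and Abcg8, which T3 changed in WT, were not called here either. Cyp7b1, the oxysterol hydroxylase of the alternative route, was higher in KO (0.88 ± 0.18), and the uptake transporter Slco1a1 by 1.77 ± 0.39. Lower in KO were the synthesis gene Cyp46a1 (-0.89 ± 0.25) and the transporters Slco1a4 (-0.98 ± 0.27) and Slco2b1 (-0.285 ± 0.08). The genes of the other lists named here were chosen after their values had been seen.

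The genes most like Cyp7a1, Abcg8 and Nr1h4 over the 8 groups were sought among all genes tested, by the root mean square difference between group means centred on each gene's own mean. For Cyp7a1, whose means span 1.77, these were Abtb2 (0.19), Zfp386 (0.24), Ankrd33b (0.25), Acot11 (0.26) and 4933404O12Rik (0.27). For Abcg8 they were D230025D16Rik (0.13), then its partner Abcg5 (0.14), Rnf138 (0.14), Slc25a42 (0.15) and Txnrd3 (0.15). For Nr1h4 they were Siah2 (0.05), Lurap1l (0.05), Cldn2 (0.07), Trim25 (0.07) and Rreb1 (0.07). A flat gene would have had 0.65, 0.46 and 0.30.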

How the data were processed

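The deposited values are log2 intensities, which the submitters' processing notes attribute to RMA with no version named. In the 6 Y147F columns nearly all cells had lost the decimal mark. It was put back so that a value lay between 3 and 16, and 1329 of 270606 cells (0.491%) that a spreadsheet could have turned into a day number were set missing, none of them in the 10 genes and 439 genes tested having at least 1. No measured column was left without a sample. Of several probe sets with 1 symbol alone the brightest over all arrays stood for the gene (18194 genes), and genes that reached the 40th percentile on fewer than 3 arrays were left out. In R 4.3.3 with limma 3.58.1, 8 group means were fitted over all 24 arrays (16 residual and 4.28 prior degrees of freedom), with two-sided tests, Benjamini-Hochberg adjusted p-values over all 14164 genes left, and calls at 0.05. Settings tried were other filters, probe-set rules, normalisation, moderation, weights and array subsets, and 24 fits each without 1 array. The genes, lists, likeness measure and tests were chosen with earlier results of these data known. Of the lists, up to 3 called genes each way with the smallest p were named per T3 response in WT and per response difference of KO and GS, and other genes are marked as chosen later. Positions and promoters are RefSeq's, from GRCm38.p6; probe positions were not used. The decimal restoration was tested on the intact columns after the same damage was made in them, and the fit on simulated data. The outcomes are not given here.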

Additional observations from a re-analysis of the deposited data

Results flagged for a closer look

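Responses to T3 that differed from the response in WT, by the test of that difference, were marked for a closer look. Among the 10 genes these were Cyp27a1, with a difference of -0.60 ± 0.11 in KO (adjusted p = 0.0021) and -0.55 ± 0.11 in GS (0.00455), and Nr1h4, with 0.59 ± 0.13 in KO (0.0124) and 0.57 ± 0.13 in GS (0.019).

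Among the other pathway genes, Slc22a7 differed by -2.10 ± 0.36 in KO and -2.70 ± 0.36 in GS, Nr1i2 by 1.16 ± 0.19 and 0.99 ± 0.19, and Nr1i3 by 0.89 ± 0.21 and 0.90 ± 0.21. In KO alone the difference passed for Cyp2c70 (-0.76 ± 0.19), Scarb1 (-0.64 ± 0.15), Npc1 (-0.63 ± 0.15), Nr5a2 (0.59 ± 0.15) and Nfil3 (1.09 ± 0.28). Their GS differences were -0.58, -0.49, -0.44, 0.38 and 1.02 in that order, and no gene was called for a difference between the KO and GS responses.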

How the results depend on the processing

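Of 44 calls of the 10 genes over the 20 contrasts, 24 held under every refit and every fit without 1 array, 38 under the 9 or fewer refits other than leaving out an array, and none changed sign. A rule that also asked for a 1.5-fold difference, set for the T3 responses and extended to the other contrasts after the data had been seen, kept 26 of the 44 calls and 17 of those 24. Under it the number of the 10 genes called was 5 of 6 for T3 in WT and in Y147F, where Cyp27a1 was lost, 0 of 2 for the response of GS and of the mean of KO and GS against WT, 1 of 2 for T3 in that mean, 1 of 4 for GS and 2 of 4 for the mean against WT with PBS, and 2 of 5 for the mean with T3. In the other contrasts it was within 1.5 times. Of 156 results not called, 10 were called somewhere and 65 changed sign. The number of the 10 genes called stayed within 1.5 times under the refits except for KO against WT with T3, 2 as reported and 4 with array weights. Without 1 array the number ran from 4 to 6 for T3 in WT and 5 to 6 in Y147F (6 in each as reported), 0 to 0 in KO and in GS, 1 to 2 for their mean, 2 to 2 for the response of KO against WT and of the mean, 1 to 3 for GS, and 0 to 0 for GS against KO and Y147F against WT. For levels with PBS it ran from 3 to 4 in KO, 2 to 3 in GS and 3 to 5 for their mean (3, 4 and 4 as reported), and with T3 from 1 to 2, 1 to 2 and 2 to 6 (2, 6 and 5). Over all genes, a fit of only the groups compared called 6 in KO (25 as reported), 2 in GS (21), 860 in Y147F (1642), and with PBS 382 for KO (972), 211 for GS (421) and 583 for their mean (926). Fitting every probe set on its own counted probe sets, so that a gene could count more than once. It called 2335 for T3 in WT (1506 genes as reported), 2586 in Y147F, and with T3 1483 for KO (982) and 1951 for the mean (1275). The ranges below for GS against KO and for Y147F against WT include that fit. Array weights called 33 in GS and 670 for GS with PBS. With T3 the fit of only the groups compared called 647 for KO, and the range was 0 to 24 for GS against KO (15) and 0 to 86 for Y147F against WT (1). With PBS it was 6 to 44 for GS against KO (14) and 1 to 33 for Y147F against WT (12). Leaving out 1 array called 1074 to 1303 genes for T3 in WT and 1088 to 1658 in Y147F, 16 to 31 in KO, 10 to 22 in GS and 54 to 121 for their mean (87). With PBS it called 523 to 795 for KO, 235 to 314 for GS and 520 to 923 for their mean, and with T3 602 to 774, 383 to 526 (792) and 671 to 1202. No paired analysis was possible because the numbers in the sample names differ between all arrays, so no groups share a replicate number.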

Other observations

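Some genes of the wider pathway passed with T3 in Y147F and not in WT. They are given as values, since no gene of the series was called for a difference between these responses. The basolateral bile acid exporter subunit Slc51b was 0.37 ± 0.09 and the flippase subunit Tmem30a 0.28 ± 0.07, both higher with T3, and the uptake transporter Slco2b1 was -0.33 ± 0.08. The lysosomal lipase Lipa was -0.37 ± 0.10 and the cholesterol-esterifying enzyme Lcat -0.27 ± 0.07. Of the regulators, the coactivator Ppargc1a was 0.51 ± 0.14 and the oxysterol receptor Nr1h3 -0.23 ± 0.07. In KO without hormone, the secreted factor Fgf21 was 1.18 ± 0.22 above WT and Ppargc1a -0.70 ± 0.14. All of these were chosen after their values had been seen.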
